A study of Homo sapiens with 11 samples.

Results

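Gene expression in MDA-MB231 cells given etoposide was described from 2 of the 11 RNA-seq libraries of the series, chosen by their titles: the etoposide library and the MDA-MB231 DMSO library whose title gives no time. MDA-MB231 is a human breast cancer cell line of the basal type. The etoposide library came from cells exposed to 20 µM etoposide for 8 h, and the DMSO library from cells given the solvent alone, for a time that the labels do not state. Another MDA-MB231 DMSO library, titled 8hr and described as having had no treatment although its treatment label reads DMSO, served as an alternative control. MDA-MB231 cells given 1 µM doxorubicin for 8 h, and U2OS osteosarcoma cells given 20 µM etoposide for 8 h or DMSO, are set beside them where stated, as are MDA-MB231 cells given 0.2 µM paclitaxel or 40 µg/mL MMS (methyl methanesulfonate, an alkylating agent) for 8 h. Each group held 1 library, and the labels do not tie libraries to separate cultures, so no difference between treatments could be tested.

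Topoisomerase II passes one DNA duplex through a transient double-strand break in another, and so removes the tangles that transcription and replication leave. Etoposide traps the enzyme on the cut DNA. Persisting breaks are read by the checkpoint kinases ATM and ATR, which stop the cell cycle and, in cells with working p53, induce p53 target genes such as CDKN1A. A topoisomerase complex left on a gene body can also stop an elongating RNA polymerase.

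Counts assigned to genes came to 29371451 with etoposide, 25506368 with DMSO and 16774156 in the DMSO library titled 8hr, within a range of 16774156 to 31588683 over the series. Levels are given as CPM, read counts per gene scaled by a library size, which is the library's gene count total multiplied by its TMM factor. Summed CPM over all genes therefore differed: 953800 with etoposide, 1004000 with DMSO and 1058000 in the DMSO library titled 8hr. All 3 libraries carried the mesenchymal basal markers of this line: 15 of 16 reached 5 CPM, led in DMSO by VIM at 2374 CPM. Of the 10 blood and immune markers 2 reached 5 CPM, CD68 and CD14, and the level summed over the 10 lay between 119 and 182 CPM in the 3 libraries. The etoposide library did not keep the mesenchymal markers at their DMSO level, and those values are given further on.

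Etoposide was accompanied by broad differences in both directions. Of 11030 genes whose larger CPM of the pair was at least 5, 973 (8.82%) were at least 2-fold higher with etoposide and 1205 (10.9%) at least 2-fold lower, and 132 and 140 passed 4-fold. The counts given for gene lists below stand beside these shares of 8.82% higher and 10.9% lower. The log2 ratio of CPM, with 0.5 added to each, had a median of -0.02 and an SD of 0.84 over these genes. Between the 2 DMSO libraries the SD was 0.37, and 91 of 10832 genes (0.84%) were at least 2-fold higher and 102 (0.942%) at least 2-fold lower in the library titled 8hr. Against both DMSO libraries 774 genes remained at least 2-fold higher (79.5% of the 973) and 1001 at least 2-fold lower (83.1% of the 1205). Against the library titled 8hr alone, 1157 of the 11030 genes (10.5%) were at least 2-fold higher and 1362 (12.3%) at least 2-fold lower. A higher call could be made on a gene nearly silent in DMSO, and 213 of the 973 had less than 5 CPM there. Of the 10664 genes at 5 CPM or more in DMSO, 760 (7.13%) were at least 2-fold higher.

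**Figure D1:**
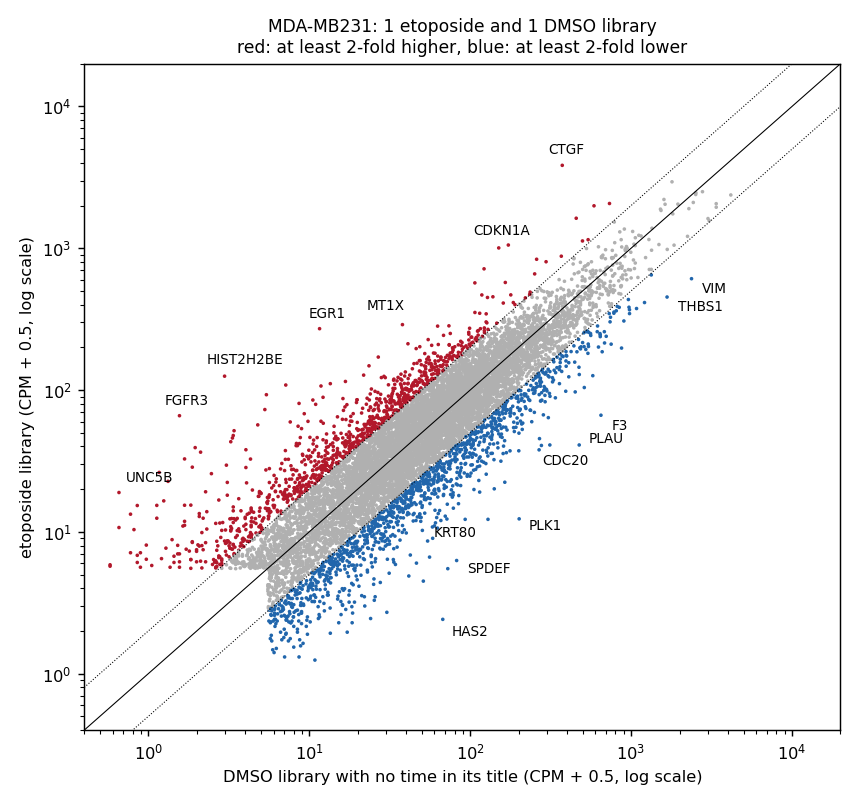
Level of each of 11030 genes in the DMSO library (x axis) and the etoposide library (y axis), both as CPM + 0.5 on log scales, with 1 point per gene; the solid line marks equal levels and the dotted lines 2-fold. The 973 genes in red lie at least 2-fold above equality and the 1205 in blue at least 2-fold below, CTGF being the most abundant labelled gene among the former and VIM among the latter.

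FGFR3, a receptor tyrosine kinase for fibroblast growth factors, stood highest among the 10048 genes with a larger CPM of at least 10. It had 65.4 CPM with etoposide, 1.06 with DMSO and 0.946 in the DMSO library titled 8hr, a log2 ratio of 5.40. The exact (Clopper-Pearson) 95% interval of that ratio, which covers counting error only, ran from 5.40 to 6.55. The 0.5 added to each CPM pulls ratios of low genes toward 0, so that a ratio can lie at or outside its interval. In the list of FGF receptors and ligands, 6 of 17 members reached 5 CPM: the decoy receptor gene FGFRL1 was at 1.15 (150 against 67.5 CPM), and FGF5, a ligand gene, at -1.38 (34.8 against 91.4 CPM). Of the 6 members, 5 lay above 0 and 1 below (median 0.72), with FRS2 at 0.84. FGFR3 passed the minimum only through etoposide, and of the 5 at 5 CPM in DMSO 1 was at least 2-fold higher and 1 lower.

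Cell surface genes of axon guidance made up part of the same top end. UNC5B, a netrin receptor, had 18.4 CPM with etoposide against 0.157 and 0.189 in the DMSO libraries (log2 ratio 4.85, interval 5.51 to 8.75). SEMA6C, a transmembrane semaphorin, had 47.3 CPM against 2.87 and 1.01 (3.83, interval 3.70 to 4.40). EPHB3, an ephrin receptor, had 14.9 CPM against 0.63 and 4.16, so its log2 ratio of 3.77 fell to 1.72 against the library titled 8hr. Of the 40 guidance genes at 5 CPM or more, a family chosen after the values were seen, 9 were at least 2-fold higher and 4 at least 2-fold lower, but of the 33 at 5 CPM in DMSO only 2 were higher, beside 7.13% of all genes under that filter. Most of the 9 higher guidance genes thus had less than 5 CPM in DMSO.

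The other genes among the 20 highest had varied roles. METRNL, a secreted factor, had 36.0 CPM against 1.61 and 2.78 (log2 ratio 4.11), and CLU, the extracellular chaperone clusterin, 92.2 CPM against 4.92 and 1.32 (4.10). MAP1A, a microtubule-associated protein gene, was at 4.17, the creatine transporter gene SLC6A8 at 3.92, the membrane scaffold gene EFR3B at 3.92, the transcription factor gene MAFA at 4.03 and TEX14, a gene of germ cell intercellular bridges, at 4.10. PCDH20, a protocadherin gene, was at 4.10 on 12.8 CPM against 0.275, but the DMSO library titled 8hr had 4.67 CPM, and against that library its ratio was 1.37. All 20 were at least 2-fold higher against both DMSO libraries.

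Immediate early genes, the transcription factors and regulators that cells induce first on stimulation, were often higher. Of 38 with 5 CPM or more (40 listed), 18 were at least 2-fold higher and 4 at least 2-fold lower, beside 8.82% and 10.9% of all genes. Their median log2 ratio was 0.90 (all genes -0.02). Restricted to the 30 members at 5 CPM in DMSO, the counts were 10 and 4 and the median 0.63. Growth factor and stress signals reach many of these genes through serum response factor, which binds CArG boxes. The 150 bases before the EGR1 start (RefSeq, GRCh38.p14, chr5:138465329-138465478, plus strand) show 2 of them in capitals, from -105 to -96 and from -83 to -74 counted from the start; the 250 bases before the start held this motif on either strand in 1.14% of 27305 RefSeq promoters and in 2 of the 29 promoters found for the list.
EGR1: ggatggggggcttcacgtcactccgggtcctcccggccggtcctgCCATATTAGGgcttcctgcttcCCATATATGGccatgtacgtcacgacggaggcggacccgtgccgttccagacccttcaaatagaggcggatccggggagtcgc

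EGR1 itself, a zinc finger transcription factor, had 270 CPM with etoposide against 11.1 and 13.2 in the DMSO libraries (log2 ratio 4.55, interval 4.44 to 4.78). FOS had 45.4 CPM against 2.83 and 2.59 (3.78), FOSB 28.1 CPM against 1.38 and 1.58 (3.93), and ARC, a regulator of synaptic receptor traffic, 25.8 CPM against 0.669 and 0.315 (4.49). In each of these 4 genes both DMSO libraries lay far below the etoposide library. ATF3, a stress-induced repressor, was at 2.97 (59.1 against 7.12 CPM) and the nuclear receptor gene NR4A3 at 3.20 (14.9 against 1.18 CPM). MYC was on the other side, at 103 CPM with etoposide against 256 and 252 (-1.30, interval -1.37 to -1.25). In MDA-MB231 given doxorubicin, whose values share the DMSO library, EGR1 was at 240 CPM and FOS at 23.3, while FOSB reached 368 CPM.

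CTGF, a secreted matricellular protein induced by YAP and by TGF-beta, was among the most abundant transcripts of the etoposide library. It had 3842 CPM there, 373 and 455 in the DMSO libraries (log2 ratio 3.36, interval 3.33 to 3.39) and 121 with doxorubicin. The other YAP and CCN targets did not share this: of 19 at 5 CPM, 2 were at least 2-fold higher, CTGF and the growth arrest gene GADD45B (1.58), and 4 at least 2-fold lower, with a median of -0.30. THBS1, a matrix glycoprotein and also a YAP target, had 452 CPM against 1673 and 3017 in the DMSO libraries (-1.89, and -2.74 against the library titled 8hr). F3, tissue factor, had 66.0 CPM against 649 and 707 (-3.29).

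**Figure D2:**
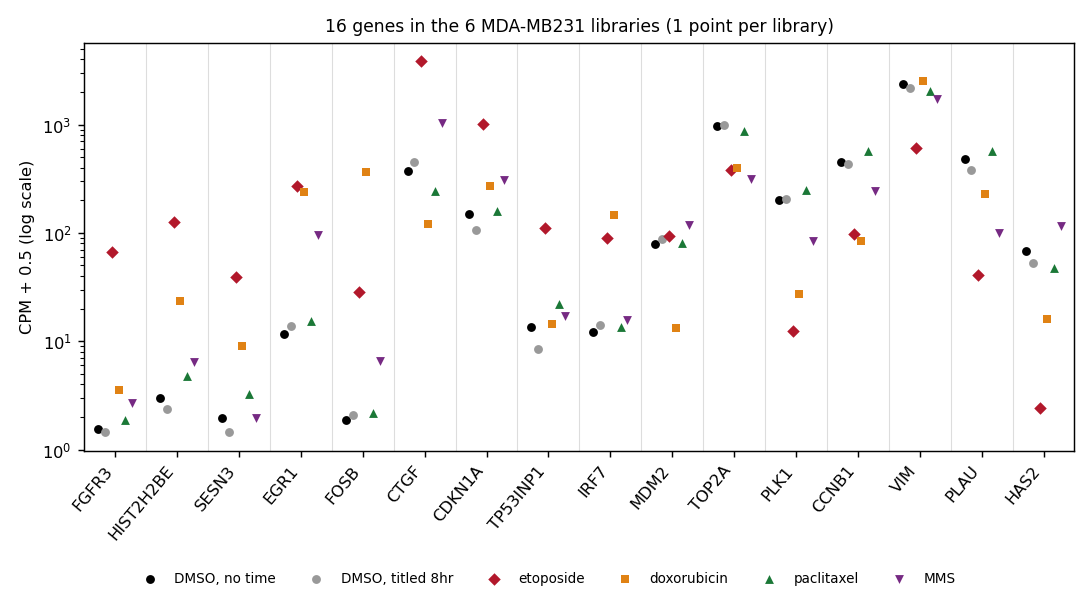
Levels (CPM + 0.5, log scale) of 16 genes in the 6 MDA-MB231 libraries, 1 point per library: both DMSO libraries, etoposide, doxorubicin, paclitaxel and MMS. For FGFR3, HIST2H2BE, SESN3, CTGF, CDKN1A and TP53INP1 the etoposide point is the highest of the 6, and for PLK1, VIM, PLAU and HAS2 it is the lowest.

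Genes known as p53 targets divided, and whether p53 acted on them was not tested. Of 40 members at 5 CPM or more (46 listed, 43 in the files), 13 were at least 2-fold higher and 4 at least 2-fold lower, beside 8.82% and 10.9% of all genes, and the median log2 ratio was 0.47, or 0.77 against the DMSO library titled 8hr. Of the 37 at 5 CPM in DMSO 10 were higher and 4 lower, with a median of 0.36. CDKN1A, the p21 inhibitor of cyclin-dependent kinases, had 1005 CPM with etoposide against 150 and 105 (2.74, interval 2.69 to 2.79). TP53INP1, which acts in autophagy and apoptosis, had 110 CPM against 13.0 and 7.95 (3.04), SERTAD1, a regulator of CDK4 and E2F, 170 CPM against 26.4 and 25 (2.67), and KITLG, the ligand of the KIT receptor, 55.1 CPM against 8.03 and 14.6 (2.70). The alkaline ceramidase gene ACER2 was at 1.94 on 11.9 against 2.72 CPM.

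Other classical members stayed near their DMSO level. MDM2, the ubiquitin ligase of p53, had 93.6 CPM with etoposide against 78.9 and 86.9 (log2 ratio 0.24), with 12.8 CPM in the doxorubicin library. GDF15, a stress cytokine, had 19.0 CPM against 14.8 and 12.4 (0.35). Among the 6 CDK inhibitor genes at 5 CPM, CDKN1C (p57) was at 2.92 on 32.1 against 3.82 CPM, CDKN1B (p27) at 0.24, and CDKN3, a phosphatase gene of dividing cells, at -1.96 on 20.9 against 83 CPM.

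The sestrins, inhibitors of mTORC1 signalling that p53 and stress can induce, include 2 genes at 5 CPM in DMSO, both of which were higher, and SESN3, which passed the minimum only through its etoposide level. SESN3 had 38.8 CPM with etoposide against 1.46 and 0.946 (log2 ratio 4.33, interval 4.26 to 5.25), SESN2 55.0 CPM against 13.8 and 13.6 (1.96) and SESN1 33.7 CPM against 9.60 and 11.3 (1.76). This family, like the ZNF genes, metallothioneins, alpha-arrestins, ID proteins, keratins and mitochondrial ribosomal proteins below, was chosen after the values were seen. Of 5 alpha-arrestins, adaptors that restrain nutrient transporters, 2 were at least 2-fold higher and 0 lower, with ratios down to -0.32. ARRDC3 was at 1.69, TXNIP at 1.00 (403 against 202 CPM) and ARRDC2 at 0.46. ARRDC4 was at 1.94 (18.3 against 4.41 CPM) and passed the minimum only through etoposide. Of the 4 at 5 CPM in DMSO 1 was higher (median 0.73), beside 7.13% of all genes.

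Replication-dependent histone genes are expressed in S phase as mRNAs without a poly(A) tail, and several of them also give polyadenylated forms. Of 60 listed genes 9 reached 5 CPM in the pair. Of these, 5 passed only through their etoposide level, so only the 4 at 5 CPM in DMSO could have come out either way, and all 4 were at least 2-fold higher with a median of 2.15. Summed over all 60 genes the level was 608 CPM with etoposide, 143 with DMSO and 91.8 in the library titled 8hr. HIST2H2BE, an H2B gene, had 125 CPM against 2.48 and 1.89 (log2 ratio 5.39, interval 5.29 to 6.04), and HIST1H2BC 32.2 CPM against 1.18 and 0.946 (4.28). HIST1H2AC, an H2A gene, had 84.6 CPM against 10.0 and 5.61 (3.01), and HIST1H2BD 78.8 CPM against 10.5 and 6.81 (2.85). Near-identical copies make the counts of single histone genes uncertain, and the way RNA species were selected is not given in the sources used here.

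H2B promoters carry an octamer (ATTTGCAT) bound by OCT1, and the stretches below show it in capitals, in genes of this list at 5 CPM or more that held it within the 150 bases before their RefSeq start. Among 8 of the 9 genes with a promoter found, 4 held the octamer on either strand in the 250 bases before the start, as did 15 of 43 list members under 5 CPM and 1.66% of all promoters. The sites began at -46 in HIST2H2BE (chr1:149886683-149886832, minus strand), -47 in HIST1H2BJ (chr6:27132796-27132945, minus strand), -46 in HIST1H2BK (chr6:27146859-27147008, minus strand) and -130 on the opposite strand in HIST1H2AC (chr6:26124022-26124171, plus strand), all GRCh38.p14. HIST1H2BJ (10.4 against 2.75 CPM, log2 ratio 1.74) and HIST1H2BK (130 against 58.7 CPM, 1.14) were named after their values were seen.
HIST2H2BE: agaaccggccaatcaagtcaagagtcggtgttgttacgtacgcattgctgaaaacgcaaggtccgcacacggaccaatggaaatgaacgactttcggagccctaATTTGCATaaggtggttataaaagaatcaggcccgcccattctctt
HIST1H2BJ: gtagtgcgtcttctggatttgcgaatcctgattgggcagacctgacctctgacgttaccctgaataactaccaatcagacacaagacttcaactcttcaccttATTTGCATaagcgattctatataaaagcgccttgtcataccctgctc
HIST1H2BK: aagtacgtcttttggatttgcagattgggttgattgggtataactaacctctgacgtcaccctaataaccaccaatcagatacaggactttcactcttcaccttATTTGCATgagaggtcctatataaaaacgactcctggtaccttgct
HIST1H2AC: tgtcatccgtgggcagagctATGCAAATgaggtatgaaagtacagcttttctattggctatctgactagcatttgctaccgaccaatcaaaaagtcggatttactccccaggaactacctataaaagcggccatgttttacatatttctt

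Zinc finger genes named ZNF, most of them sequence-specific repressors of the KRAB family, had a median above that of all genes. Of 405 at 5 CPM or more (528 in the files), 78 were at least 2-fold higher and 15 at least 2-fold lower, beside 8.82% and 10.9% of all genes. Their median log2 ratio was 0.53, or 0.62 against the DMSO library titled 8hr. Among the 359 at 5 CPM in DMSO, 60 were higher and 15 lower (median 0.46). ZNF878 (11 against 2.28 CPM, 2.05), ZNF433 (23.2 against 5.75 CPM, 1.92) and ZNF18 (11.9 against 2.79 CPM, 1.91) had the highest ratios, and ZNF860 the lowest (0.974 against 5.43 CPM, -2.01). In the doxorubicin library, against the same DMSO library, the median of these 405 genes was -0.86 (all genes -0.21). In U2OS cells given etoposide it was 0.30 (all genes -0.03).

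Several lists of stress response genes besides the p53 targets had medians above 0. Of 21 NRF2 targets, which answer oxidants, 4 were at least 2-fold higher and 0 lower (median 0.47), led by the autophagy receptor gene SQSTM1 at 1991 CPM against 588 and 577 (1.76), GCLC of glutathione synthesis (1.41), the haem oxygenase gene HMOX1 (1.37, 38.2 against 14.5 CPM) and the peroxiredoxin gene PRDX1 (1.09). Of 24 ER chaperone and unfolded protein response genes, 4 were higher by at least 2-fold and 0 lower (median 0.58), with the cochaperone gene DNAJB9 at 1.31 and the ER stress sensor gene ERN1 at 1.16. Of 31 interferon-stimulated genes 4 were higher by at least 2-fold and 0 lower (median 0.39), and IRF7, a master regulator of interferon genes, had 88.4 CPM against 11.7 and 13.7 (2.87). The metallothionein gene MT1X, encoding a small metal-binding protein, had 289 CPM against 37.5 and 32.8 (2.93), MT1E was at 1.83 and MT2A at 0.72. These counts of higher genes stand beside 8.82% of all genes.

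The integrated stress response, in contrast, gave 5 higher and 3 lower of 30 genes (median -0.05), beside 8.82% and 10.9% of all genes. Against the DMSO library titled 8hr these 30 genes gave 5 higher and 7 lower (median -0.46), beside 10.5% and 12.3% of all genes. SESN2 and ATF3 belong to it and are described above, and DDIT3, the CHOP transcription factor, was at 0.95 (32.5 against 16.6 CPM). The cystathionine lyase gene CTH was at 1.85 and the glycine transporter gene SLC6A9 at -2.30 (3.64 against 19.9 CPM). The heat shock list gave 3 higher and 1 lower of 21 (median 0.07), with DNAJB4 at 1.52 and HSPB1 at -1.23. Against the library titled 8hr the heat shock list gave 3 higher and 4 lower (median -0.24).

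**Figure D3:**
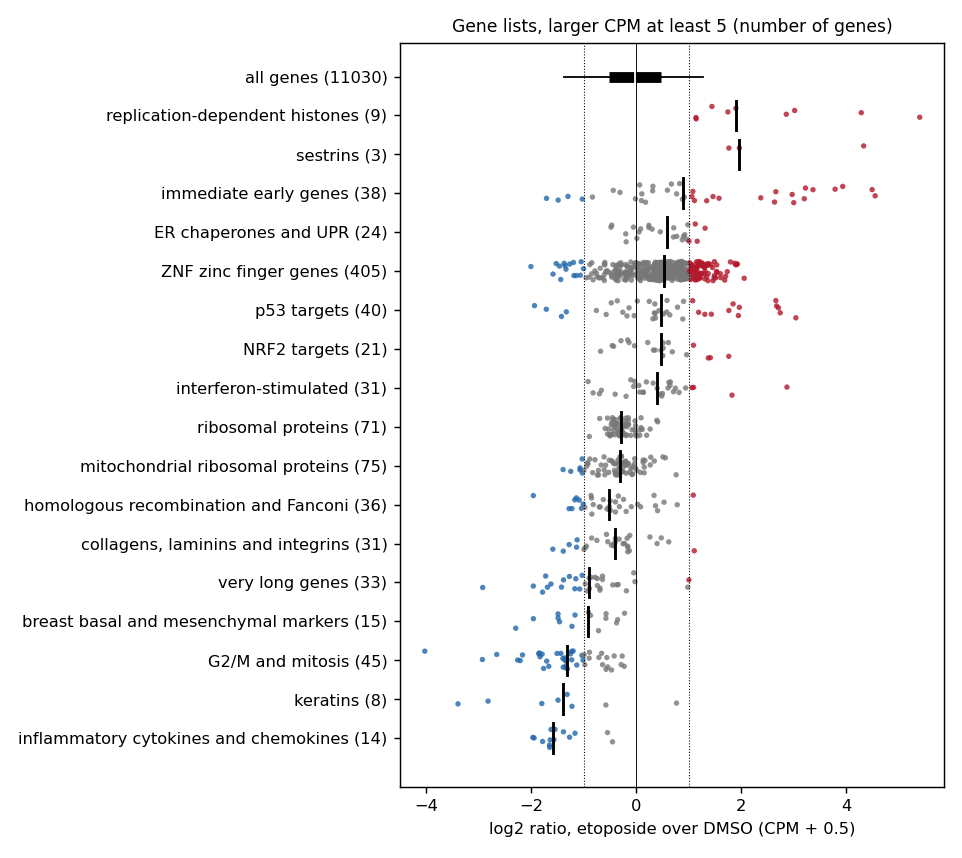
Log2 ratio of etoposide over DMSO (x axis) for the members of 17 gene lists and families with a larger CPM of at least 5, 1 point per gene (red at least 2-fold higher, blue at least 2-fold lower), with the list's median as a vertical black line; the top row shows all 11030 genes by their 5th to 95th percentiles (thin line), interquartile range (thick line) and median (white). All G2/M genes lie to the left and ribosomal protein genes lie within the 2-fold lines. Of the 9 histone genes 5, and of the 3 sestrins 1, passed the minimum only through etoposide and could lie only to the right. The same holds for some members of other rows: 30 of 38 immediate early genes, 359 of 405 ZNF genes, 37 of 40 p53 targets and 20 of 21 NRF2 targets reached 5 CPM in DMSO.

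Mitotic and G2 genes all lay below their DMSO level. All 45 listed genes reached 5 CPM, 30 of them were at least 2-fold lower and 0 higher (10.9% of all genes lower), and every ratio lay below 0, from -4.03 to -0.23 with a median of -1.31. Against the DMSO library titled 8hr 27 were at least 2-fold lower (12.3% of all genes) and the median was -1.10. PLK1, the kinase that drives mitotic entry, had 11.9 CPM with etoposide against 201 and 203 (-4.03, interval -4.24 to -3.93). CDC20, the activator of the anaphase-promoting complex, had 40.5 CPM against 312 and 322 (-2.93), AURKA, a centrosomal kinase, 63.4 CPM against 306 and 292 (-2.26), and CCNB1, cyclin B1, 96.5 CPM against 449 and 434 (-2.21). HMMR, a spindle protein and hyaluronan receptor gene, had 2.99 CPM against 21.5 and 26.8 (-2.66). In a bulk library fewer cells in a phase and less RNA per cell cannot be told apart.

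Promoters of such genes often hold a CHR element (TTTGAA), to which the DREAM complex binds to repress them outside G2 and M. Of 38 list members with a promoter found, 17 held TTTGAA on either strand in the 250 bases before the start, and 14 of the 25 found among the 30 lower ones did. The share was 13.6% of all 27305 promoters, 8.14% of those found for genes at 5 CPM or more and 11.2% of those found for genes at least 2-fold lower. In the histone list 19 of 51 promoters held TTTGAA, and 1 of the 8 found for its genes at 5 CPM or more. Shown in capitals are the elements of PLK1 (chr16:23678739-23678888, plus strand, from -29), CCNB2 (chr15:59104996-59105145, plus strand, from -29), HMMR (chr5:163460482-163460631, plus strand, 2 in tandem from -28 and -22) and BUB1B (chr15:40160919-40161068, plus strand, from -23), in the 150 bases before the RefSeq start, GRCh38.p14. BUB1B, a spindle checkpoint kinase gene (35.2 against 160 CPM, -2.17), and CCNB2, cyclin B2 (41.2 against 95.7 CPM, -1.20), were picked after their values were seen.
PLK1: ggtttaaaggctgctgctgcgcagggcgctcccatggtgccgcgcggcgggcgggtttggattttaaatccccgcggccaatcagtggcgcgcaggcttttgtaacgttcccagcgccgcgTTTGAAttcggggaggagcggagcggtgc
CCNB2: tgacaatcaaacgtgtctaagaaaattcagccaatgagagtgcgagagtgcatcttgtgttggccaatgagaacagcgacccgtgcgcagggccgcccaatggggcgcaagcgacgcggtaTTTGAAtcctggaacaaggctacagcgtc
HMMR: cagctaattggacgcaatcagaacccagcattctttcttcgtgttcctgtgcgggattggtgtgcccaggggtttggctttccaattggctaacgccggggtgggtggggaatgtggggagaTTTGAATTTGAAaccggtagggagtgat
BUB1B: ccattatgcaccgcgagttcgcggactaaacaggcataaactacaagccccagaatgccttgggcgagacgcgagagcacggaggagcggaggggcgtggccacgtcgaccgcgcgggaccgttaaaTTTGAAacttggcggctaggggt

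Genes of G1/S and DNA replication differed less, 2 of 50 being at least 2-fold higher and 6 lower (median -0.28), beside 8.82% and 10.9% of all genes. CCND1, cyclin D1, had 197 CPM with etoposide against 872 and 1073 (log2 ratio -2.14, interval -2.19 to -2.10). The primase gene PRIM1 was at -1.87 (8.83 against 33.6 CPM), GINS1 of the replicative helicase at -1.71 and UHRF1, which maintains DNA methylation, at -1.69. Of 36 homologous recombination and Fanconi genes, 8 were at least 2-fold lower and 1 higher (median -0.52), among them RAD51B (1.23 against 6.26 CPM, -1.96), RAD51D (-1.28), BRCA1 (21.3 against 50.6 CPM, -1.23) and the nuclease gene EME1 (-1.17). Of 24 checkpoint kinases and mediators 1 passed 2-fold, ATR at -1.03 (27.1 against 55.9 CPM).

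The genes that encode the drug's own targets were not alike. TOP2A, the isoform of dividing cells, had 383 CPM with etoposide against 970 and 983 (log2 ratio -1.34, interval -1.37 to -1.31), and 401 CPM with doxorubicin. TOP2B, the isoform present throughout the cycle, had 162 CPM against 200 and 210 (-0.30, interval -0.36 to -0.24). Of the 19 topoisomerase and end repair genes 2 were at least 2-fold lower and 0 higher, near the 10.9% of all genes that were lower. The 2 were TOP2A and TDP1, a phosphodiesterase that frees DNA ends from trapped topoisomerase, at 29.2 CPM against 103 and 89.9 (-1.80). The ligase gene LIG4 stood at the other end (70.0 against 34.9 CPM, 0.99) and PRKDC, the DNA-dependent protein kinase gene, at -0.88 and at -1.73 against the library titled 8hr. Among ABC transporter genes, some of which export etoposide, 3 of 9 were at least 2-fold lower (10.9% of all genes) and 0 higher, with a median of -0.40 that was -0.05 against the DMSO library titled 8hr. The 3 were ABCC4 (17.1 against 51.4 CPM, -1.56), ABCC1 (34.7 against 100 CPM, -1.52) and ABCG2 (2.57 against 7.52 CPM, -1.39).

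Genes of apoptosis had medians near 0. Of 20 BCL2 family genes 2 were higher by at least 2-fold and 1 lower (median 0.19), beside 8.82% and 10.9% of all genes. BCL2L11, encoding the BH3-only protein BIM, had 68.4 CPM against 20.7 and 24.7 (1.70), and BID 14.2 CPM against 36.4 and 38.9 (-1.33). BBC3, encoding PUMA, had 9.32 CPM against 4.17 and 3.91 (1.07) and passed the minimum only through etoposide. Of the 18 at 5 CPM in DMSO 1 was higher and 1 lower (median 0.03). The anti-apoptotic gene BCL2L1 was at -0.99. Of 20 death receptor and caspase genes 1 was at least 2-fold higher, CASP9 (40.8 against 13.1 CPM, 1.6), and 3 lower: TNFRSF21 (-1.48), TNFRSF10A (-1.19) and BIRC3 (-1.14).

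Inflammatory cytokine and chemokine genes lay below the DMSO level, but by an amount that depended on the control. Of 14 at 5 CPM, 12 were at least 2-fold lower and 0 higher (median -1.6), whereas against the DMSO library titled 8hr 4 were at least 2-fold lower and the median was -0.69. The DMSO libraries themselves differed in these genes by a median of -0.72, and what lay behind that difference was not tested. IL6 had 28.3 CPM with etoposide against 110 and 54.9, and IL8 414 CPM against 1212 and 554, so the etoposide library was the lowest of the 3 in both. CSF2, encoding GM-CSF, had 30.5 CPM against 121 and 46.5, and CSF3, encoding G-CSF, 32.5 CPM against 113 and 42.9. Of 19 regulators of NF-kB, which drives many of these genes, 0 were at least 2-fold higher and 1, BIRC3, lower (median 0.23).

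Cell surface and matrix genes went both ways. HAS2, a hyaluronan synthase gene, had 1.92 CPM with etoposide against 67.1 and 52.3, the lowest ratio of all (-4.81, interval -5.53 to -4.76). The hyaluronidase gene TMEM2 lay on the other side at 449 CPM against 128 and 176 (1.81), and CD44, the hyaluronan receptor, at 708 CPM against 1298 and 1053 (-0.87). PLAU, the urokinase protease that activates plasminogen, had 40.5 CPM against 476 and 384 (-3.54). Of the 15 protease and inhibitor genes in its list 3 were at least 2-fold higher and 6 lower, the metalloproteinase gene ADAMTS1 (-1.90) and the inhibitor gene TIMP3 (-1.71) among the latter. Of 31 collagen, laminin and integrin genes 1 was at least 2-fold higher and 5 lower (median -0.40), with ITGB4 at -1.59 (but -0.57 against the library titled 8hr), COL13A1 at -1.39 and COL8A1 at -1.28.

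Markers listed for mesenchymal basal breast cancer cells were lower too. That list also held KRT8, KRT18 and KRT19, keratin genes that are neither basal nor mesenchymal markers. Of the 15 members at 5 CPM (the other, TWIST1, was below it), 7 were at least 2-fold lower and 0 higher. Every ratio was negative and the median was -0.91. Their summed level was 4172 CPM with etoposide, 8637 with DMSO and 8318 in the library titled 8hr. CAV1, the caveolar coat gene, had 104 CPM against 512 and 558 (-2.30), VIM, vimentin, 609 CPM against 2374 and 2164 (-1.96), KRT18 71.5 CPM against 202 and 248 (-1.49) and the repressor gene SNAI2 15.6 CPM against 44.6 and 66.0 (-1.49). In the doxorubicin library VIM was at 2533 and CAV1 at 518 CPM. Of the 8 keratin genes at 5 CPM 6 were at least 2-fold lower and 0 higher, KRT80 (11.8 against 129 CPM, -3.40) and KRT7 (37.4 against 268 CPM, -2.82) being the lowest. The list of luminal or epithelial markers, which also held the basal keratin genes KRT5 and KRT14, gave 1 higher and 1 lower of 6. These were ERBB3 (1.42) and GATA3 (-1.09), and the list's median was 0.03.

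Signalling genes of the TGF-beta, BMP and Notch pathways went both ways. Of 20 TGF-beta and BMP genes 4 were higher by at least 2-fold and 7 lower (median -0.30). Of the 18 at 5 CPM in DMSO 2 were higher (7.13% of all genes) and 7 lower, with a median of -0.54. The ligand gene TGFB2 had 40.2 CPM with etoposide against 277 and 256 (-2.77) and NOG, an extracellular BMP antagonist, 8.51 CPM against 58.0 and 67.6 (-2.70). ID2 and ID4, dominant-negative helix-loop-helix factors that BMP signals induce, passed the minimum only through etoposide, ID2 at 9.87 CPM against 0.315 and 0.505 (3.67) and ID4 at 10.6 CPM against 1.18 and 2.59 (2.73), whereas ID1 was at -0.41. Of 12 Notch genes 1 was at least 2-fold higher, the ligand gene JAG2 (1.56), which passed the minimum only through etoposide, and 3 lower, the coactivator genes MAML2 (-1.15) and MAML3 (-1.03) and the glycosyltransferase gene LFNG (-1.15). MAPK feedback regulators gave 3 higher and 2 lower of 19, with ETV5 at 1.34, DUSP1 at 1.11 and DUSP4 at -1.67 (214 against 684 CPM).

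Further genes among the 20 lowest included SLCO4A1, an organic anion transporter gene (5 against 72.1 and 45.7 CPM, -3.72), SPDEF, an ETS factor of epithelia (5.78 against 81.9 and 91.6 CPM, -3.71), and the adhesion receptor gene GPR110 (-3.49). RCSD1 (-3.30), the kinase gene NRK (-3.13), the potassium channel gene KCNQ5 (-3.09), the adhesion gene CLMP (-3.08), the transcription factor gene E2F5 (-3.02), the ligand gene WNT7B (-2.95) and ARHGAP22 (-2.95) followed. NRG1, a ligand of ERBB receptors, had 11.8 CPM against 92.6 and 103 (-2.93). All 20 lowest genes were at least 2-fold lower against both DMSO libraries. Of the 40 genes at the top and bottom, 4 with placeholder symbols are counted but not named.

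Ribosomal protein genes lay within a narrow range. Of 71 at 5 CPM 0 passed 2-fold in either direction. Their median log2 ratio was -0.29 (all genes -0.02), against 0.71 for the same genes in the doxorubicin library (all genes -0.21). The lowest were RPS26 (-0.90), RPL22 (98.3 against 160 CPM, -0.70) and RPL5 (393 against 594 CPM, -0.59). Processed pseudogenes share sequence with these genes, so their counts are uncertain. Mitochondrial ribosomal protein genes gave 6 lower and 0 higher of 75 (median -0.32), beside 10.9% and 8.82% of all genes. MRPL12 was lowest at -1.40 (34.0 against 90.2 CPM). In metabolism, 5 of 29 glycolysis and hypoxia genes were higher by at least 2-fold and 3 lower, NDRG1, a hypoxia-induced gene, at 468 CPM against 118 and 59.4 (1.99), and the glucose transporter gene SLC2A1 at 193 CPM against 523 and 464 (-1.44). Cholesterol synthesis genes gave 4 higher and 3 lower of 27, with SREBF1, encoding the lipogenic factor SREBP1, at -1.30.

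Ligands by which stressed cells are seen by natural killer cells were listed with immune checkpoint genes. ULBP3 was at 1.45 (11.4 against 3.86 CPM) and ULBP2 at 1.14 (41.0 against 18.3 CPM). The checkpoint ligand genes CD274, encoding PD-L1, and PDCD1LG2 were at -1.05 (35.3 against 73.6 and 56.3 CPM, or -0.66 against the library titled 8hr) and -1.87 (3.09 against 12.6 and 7.69 CPM). Of 11 genes in this list 3 were at least 2-fold higher and 2 lower, or 2 and 2 of the 10 at 5 CPM in DMSO. Of 12 nuclear noncoding and host RNA genes 1 was at least 2-fold lower and 1 higher, MALAT1 at 227 CPM against 112 and 91.1 (1.02), and NEAT1 had 395 CPM against 257 and 112 (0.62, or 1.81 against the library titled 8hr).

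Genomic length was examined because long genes take longest to transcribe. A span was found in GENCODE v29 (GRCh38) for 9943 of the 11030 genes (90.1%), by a unique match of the symbol. The median log2 ratio was -0.01 for genes up to 5 kb and 0.02 for those of 20 to 50 kb, and was lower in each longer class: -0.11 at 100 to 200 kb (1252 genes), -0.27 at 200 to 400 kb (551 genes) and -0.66 above 400 kb (186 genes). Above 400 kb 29.6% of genes were at least 2-fold lower and 4.84% higher, against 7.32% and 11.2% up to 5 kb. Other treatments had values of this size in that longest class: doxorubicin was at -0.57 over the same DMSO library, MMS at -0.63 over the DMSO library titled 8hr, and U2OS etoposide at -0.77 over U2OS DMSO. Paclitaxel was at 0.05 over the DMSO library with no time, and the DMSO library titled 8hr at 0.12. Lower genes had a median span of 46.3 kb, higher ones 28.1 kb and all genes 34.3 kb. These are descriptions across genes, which are not independent replicates.

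**Figure D4:**
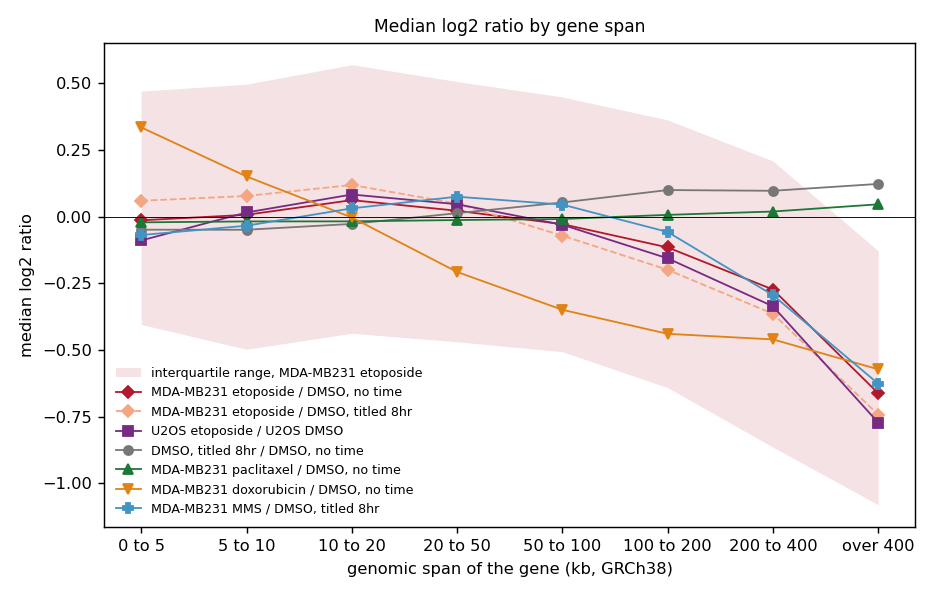
Median log2 ratio (y axis) of genes in 8 classes of genomic span (x axis, kb) for 7 pairs of libraries, with the interquartile range of genes shaded for MDA-MB231 etoposide over DMSO. Etoposide lies near 0 up to 100 kb and reaches -0.66 above 400 kb in MDA-MB231 and -0.77 in U2OS; doxorubicin (-0.57) and MMS (-0.63) also lie below 0 there, and paclitaxel (0.05) and the DMSO library titled 8hr (0.12) above it.

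In a list of very long genes, 33 of 58 reached 5 CPM, of which 13 were at least 2-fold lower and 1 higher (median -0.89, and -1.01 with 18 lower against the DMSO library titled 8hr). The lowest after NRG1 and RAD51B were DIAPH2, an actin-nucleating formin gene (8.05 against 29 CPM, -1.79), and LPP, a focal adhesion gene (22.2 against 74.7 CPM, -1.73). Among the other groups with medians below 0, the G2/M genes had a median span of 31.7 kb and the cytokine genes 6.12 kb, below the 34.3 kb of all genes. Homologous recombination and Fanconi genes (69.9 kb), collagen, laminin and integrin genes (90.4 kb) and topoisomerase and end repair genes (62 kb) lay above it. The part of span in these values was not tested.

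Etoposide in U2OS cells, a comparison that shares no library with this one, gave 677 of 11608 genes (5.83%) at least 2-fold higher and 897 (7.73%) at least 2-fold lower. Of 10435 genes at 5 CPM in both lines, 317 were at least 2-fold higher in both, which is 35.0% of the 905 higher in MDA-MB231 and 60.2% of the 527 higher in U2OS. Lower in both were 435, or 41.5% of 1048 and 63.4% of 686, and 7 genes passed 2-fold in opposite directions. Over all 10435 genes, 5.05% were at least 2-fold higher in U2OS and 6.57% at least 2-fold lower. FGFR3 had 36.8 CPM against 2.73 in U2OS (log2 ratio 3.53), UNC5B 50.3 against 7.76 (2.62), SEMA6C 30.1 against 2.78 (3.22), and HAS2 0.82 against 19.1 (-3.89). Some values were nearer 0 in U2OS: the G2/M list had a median of -0.56, PLK1 -1.71 and CDKN1A 0.93 (512 against 270 CPM). Other lists were similar or farther from 0 there: keratins -1.83 (MDA-MB231 -1.40), very long genes -1.09 (-0.89), cytokines -1.40 (-1.60) and basal and mesenchymal markers -0.90 (-0.91). The 9 histone genes had a median of 0.06 in U2OS, HIST2H2BE being at 92.4 against 55.5 CPM (0.73). Only 4 of the 9 reached 5 CPM in MDA-MB231 DMSO, so their selection favoured higher ratios in MDA-MB231. With 1 library per line and treatment, the difference between the lines was not tested.

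**Figure D5:**
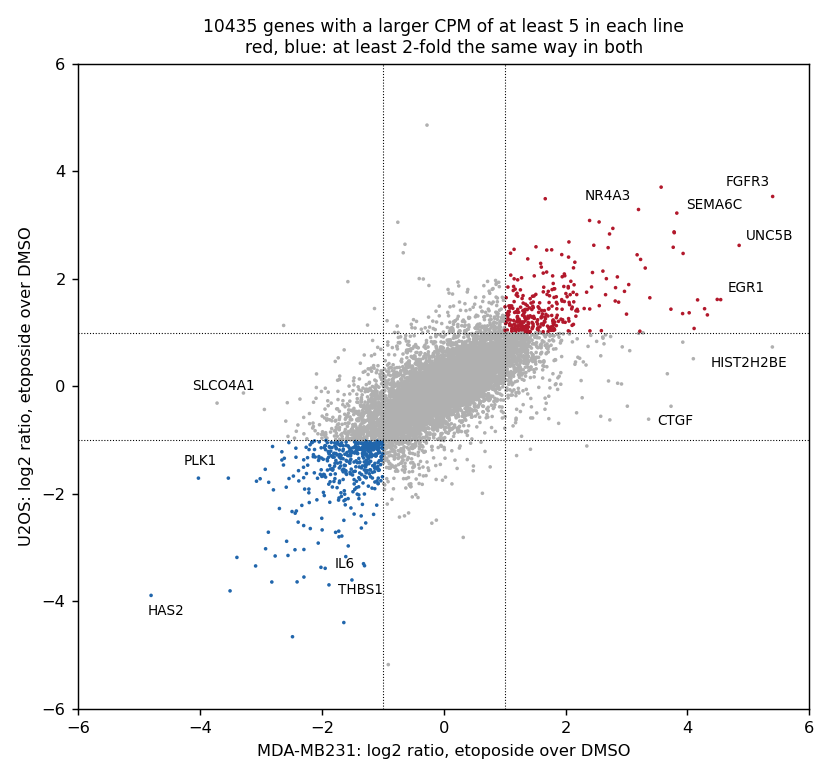
Log2 ratio of etoposide over DMSO in MDA-MB231 (x axis) and U2OS (y axis) for the 10435 genes that reached 5 CPM in both lines, 1 point per gene, with dotted lines at 2-fold. The 317 red genes are at least 2-fold higher in both lines and the 435 blue genes at least 2-fold lower in both, while CTGF lies at 3.36 in MDA-MB231 and -0.61 in U2OS.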

How the data were processed

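Read counts by gene symbol (23228 symbols, whole numbers) are what the authors deposited, 1 table a library. The 5 summary rows in each were left out of library sizes. Reads aligned to several places took 28.4% to 37.5% per library. CASAVA 1.8.2, TopHat2 2.0.8b and HTSeq are named in the submitters' processing notes, with the builds hg19 and mm9; hg19 was taken for these human cells. No source used here gives the strand setting of the counting, and reads of a gene and an overlapping antisense gene cannot be told apart.

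Counts were scaled by TMM over 11 libraries (R 4.3.3, edgeR 4.0.16) to CPM. Log2 ratios took CPM + 0.5. A gene entered the counts if either library of the pair reached 5 CPM, and was called at 2-fold. No test was run. The ratio and interval code was tested on simulated data. Gene lists (37, and 8 families added after the values were seen), members and alternatives were chosen with earlier results of these data known. Named genes are the 20 highest and 20 lowest reaching 10 CPM in the pair, at most 4 members of each list (largest absolute ratio), and a set of marker genes; others are said to be chosen after their values were seen. Placeholder symbols, pseudogenes and genes of small or antisense RNA were left unnamed, and a gene of the marker set is not reported here. Promoter sequences are from RefSeq (GRCh38.p14), matched by current symbol or unique synonym. Alternatives were total-count and DESeq2 1.42.0 scaling, minimums of 1 and 20 CPM, 0.1 or 2 added to CPM, the other DMSO library, and 2-fold against both DMSO libraries; a filter on the DMSO level alone, or for lower genes on the etoposide level alone, was added after seeing the data.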

Additional observations from a re-analysis of the deposited data

Results flagged for a closer look

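The genes named were compared between the lines where they reached 5 CPM in both. Of these, 14 were at least 2-fold different in MDA-MB231 and lay on the other side of 0 in U2OS beyond counting error. The difference between the lines was not tested, as each line had 1 library per treatment. Log2 ratios of etoposide over DMSO are given for each, with the CPM behind the larger contrasts. CTGF was at 3.36 in MDA-MB231 and -0.61 in U2OS (3842 against 373 CPM and 160 against 245 CPM). AQP3, a water and glycerol channel gene, was at 2.35 in MDA-MB231 and -1.11 in U2OS (59.8 against 11.3 CPM and 9.48 against 21.1 CPM). The cell polarity gene MPP7 was at 1.42 in MDA-MB231 and -1.17 in U2OS, and the dynamin gene DNM3 at 1.20 in MDA-MB231 and -1.29 in U2OS. ID4 was at 2.73 in MDA-MB231 and -0.63 in U2OS. HIST1H2AC was at 3.01 in MDA-MB231 and -0.37 in U2OS (84.6 against 10 CPM and 38 against 49.3 CPM), HIST1H2BK at 1.14 in MDA-MB231 and -0.74 in U2OS, and PRDX1 at 1.09 in MDA-MB231 and -0.07 in U2OS. With total-count scaling the U2OS value of PRDX1 was 0.14, so that its side of 0 depended on the scaling; AQP3 (-0.92) and MPP7 (-0.98) then fell short of 2-fold in U2OS.

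In the opposite sense, the RNA-binding protein gene CELF2 was at -2.63 in MDA-MB231 and 1.13 in U2OS (6.37 against 42 CPM and 5.88 against 2.41 CPM). The metalloproteinase gene ADAMTS9 was at -1.57 in MDA-MB231 and 1.95 in U2OS (34.8 against 105 CPM and 8.09 against 1.73 CPM). IQSEC2, an exchange factor gene for ARF GTPases, was at -1.25 in MDA-MB231 and 1.14 in U2OS, FAM167A at -1.14 in MDA-MB231 and 1.45 in U2OS, BIRC3 at -1.14 in MDA-MB231 and 0.59 in U2OS and TNFRSF10A at -1.19 in MDA-MB231 and 0.34 in U2OS. Against the DMSO library titled 8hr, BIRC3 (-0.57) and IQSEC2 (-0.87) no longer reached 2-fold in MDA-MB231. AQP3, MPP7, DNM3, CELF2, ADAMTS9, IQSEC2 and FAM167A were picked after their values were seen, as the 7 genes at least 2-fold apart from DMSO in opposite directions in the 2 lines.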

How the results depend on the processing

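The counts of genes at least 2-fold higher or lower stayed within 1.5 times of 973 and 1205 under every alternative run: 713 to 1211 higher and 877 to 1423 lower. Of the genes at least 2-fold higher in both lines, 317 became 509 with total-count scaling and 200 with a minimum of 20 CPM. Total-count scaling moved the median over all genes from -0.02 to 0.05 and the share of higher genes among those called from 44.7% to 52.0%. No named gene at 2-fold or more changed sign under any alternative run, but the size of many ratios was less stable. Of 204 named genes, 141 were labelled as moved with the DMSO library titled 8hr, EPHB3 (3.77 to 1.72) among them. With 2 added to CPM 68 were so labelled, and with total-count scaling 44, for which small shifts sufficed. Of 52 list and span medians, 18 moved by more than 0.2 with the DMSO library titled 8hr, 0 with either other scaling. No paired analysis was possible because each group held 1 library, which is also why no replicate could be left out. Depth limits ratios of genes with few reads in DMSO, such as UNC5B with 4.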
